A study of Mus musculus with 7 samples.

Results

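The genes described here are 36 mouse genes of the amino acid stress response, chosen by name as transcription regulators, stress effectors, synthesis enzymes, transporters and tRNA synthetases that respond to or act with ATF4. Of these, 33 were measured, among 22180 genes with a probe set of 1 gene symbol. Slc6a9 and Aars were on probe sets that list several symbols and Pycr1 was on none with its symbol, so these 3 were not analysed here. The arrays held 2 samples of Nanog knockout (KO) induced pluripotent stem cells (iPSC), 2 of wild-type (WT) iPSC, 1 of WT embryonic stem cells (ESC), 1 of Nanog KO mouse embryonic fibroblasts (MEF) and 1 of WT MEF, all of strain 129. iPSC are somatic cells returned to an ESC-like state, and Nanog is a transcription factor of the pluripotency network. Cells were kept in ESC, 2i/LIF or MEF medium, but the labels tie no medium to a sample, and they do not say whether the 2 KO iPSC arrays came from separate lines. The p-values therefore measure the spread between these samples, which may be less than the spread between lines.

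When an amino acid runs short, uncharged tRNA activates the kinase GCN2, which phosphorylates the translation factor eIF2. ER stress acts on the same factor through the kinase PERK. General translation then falls while translation of Atf4 mRNA rises, so ATF4 protein can increase with little change in its transcript. ATF4 binds composite C/EBP-ATF elements near genes of amino acid synthesis, uptake and tRNA charging, and also switches on regulators such as CHOP (Ddit3). Pluripotent mouse cells depend strongly on amino acid metabolism.

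Values are log2 probe set intensities, so 1 unit is a 2-fold step, and levels of different genes cannot be set against each other. Nanog stood at 7.50 and 7.44 in the KO iPSC arrays, against 12.84 and 12.76 in WT iPSC and 12.73 in WT ESC, and at 6.42 in KO MEF against 6.53 in WT MEF. Background was set on each array so that 95% of 1390 odorant and vomeronasal receptor genes were below it, and lay between 6.30 and 6.50. Of the 33 genes, 32 lay above it on all 7 arrays, and Slc7a11 on 4. The median of 15 pluripotent cell markers lay between 11.3 and 11.6 on the KO iPSC, WT iPSC and WT ESC arrays, against 6.19 in KO MEF and 6.27 in WT MEF. The median of 21 measured fibroblast markers of 22 was 7.22 and 7.08 in KO iPSC, against 9.41 and 7.48 in WT iPSC and 8.38 in WT ESC, with 12.2 in KO MEF and 11.7 in WT MEF. The number of these 21 markers above background was 15 and 16 in KO iPSC, against 20 and 16 in WT iPSC and 19 in WT ESC, and the matrix gene Lum was below it on 6 of the 7 arrays. In bulk samples, fewer cells of a type and less RNA per cell cannot be told apart.

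The element that ATF4 recognises was looked for in RefSeq promoter windows of assembly GRCm38.p6, which run from 250 bases before to 50 bases after a gene's start. The motif TGATGNAA, on either strand, was in a window of 12 of the 30 genes that had one (40.0%), against 4.13% of 17491 protein-coding genes. The form TGATGCAA, which is a special case of it, was in 9 of 30 (30.0%), against 1.01% of all. The genes were named as ATF4 targets, so these shares describe the choice and are no independent finding. The matches of 9 genes lay before the start, and 6 of these are shown because they belong to regulators, effectors, a synthesis enzyme and a transporter whose values are described. Capitals mark the match, and each run reads 5′ to 3′ along the gene's strand and lies before the start.
Slc7a11, chr3:50443631-50443701, minus strand: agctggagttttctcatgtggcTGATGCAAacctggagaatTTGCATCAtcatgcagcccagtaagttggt
Asns, chr6:7693210-7693254, minus strand: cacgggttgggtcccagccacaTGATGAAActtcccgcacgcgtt
Atf3, chr1:191183414-191183465, minus strand: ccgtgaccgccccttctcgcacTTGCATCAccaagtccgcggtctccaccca
Chac1, chr2:119351027-119351078, plus strand: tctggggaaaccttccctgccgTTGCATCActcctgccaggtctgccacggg
Nupr1, chr7:126625551-126625602, minus strand: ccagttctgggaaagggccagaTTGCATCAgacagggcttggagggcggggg
Vldlr, chr19:27216798-27216849, plus strand: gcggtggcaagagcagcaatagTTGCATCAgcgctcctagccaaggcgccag
Slc7a11, the light chain of the cystine importer, carries 2 matches on opposite strands, at 59 and 40 bases before its start. The match of Asns lies 16 bases before the start, and those of Atf3 and Nupr1 both lie 103 bases before it. The windows of Ddit3, Phgdh, Cbs, Aldh18a1 and Slc7a1 held no match.

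KO iPSC were first set against the 3 WT pluripotent arrays, the comparison that the series names. The genes of the response moved in both directions. The stress factor Ddit3, the cysteine synthesis enzymes Cth and Cbs and the transporters Slc7a1 and Slc7a11 rose, while the serine synthesis enzyme Phgdh, the proline synthesis enzyme Aldh18a1, the transporter Slc7a3 and the synthetase Wars fell. In limma, which fits all 22180 genes, 5 of the 33 were higher (6.89% of all genes) and 4 were lower (8.81% of all genes), and 24 did not pass an adjusted p of 0.05 (15.7% of all genes passed in either direction). The median difference over the 33 was 0.01, against 0.03 over all genes, and the differences ran from -1.40 to 1.54. Both KO iPSC arrays lay above all 3 WT arrays for 9 of the 33 (28.4% of all genes) and below them for 10 (23.2% of all genes). With either KO iPSC array left out, none of the 33 passed, and calls over all genes were also far fewer. The KO side was then 1 array, and the spread came from the WT arrays alone.

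**Figure D1:**
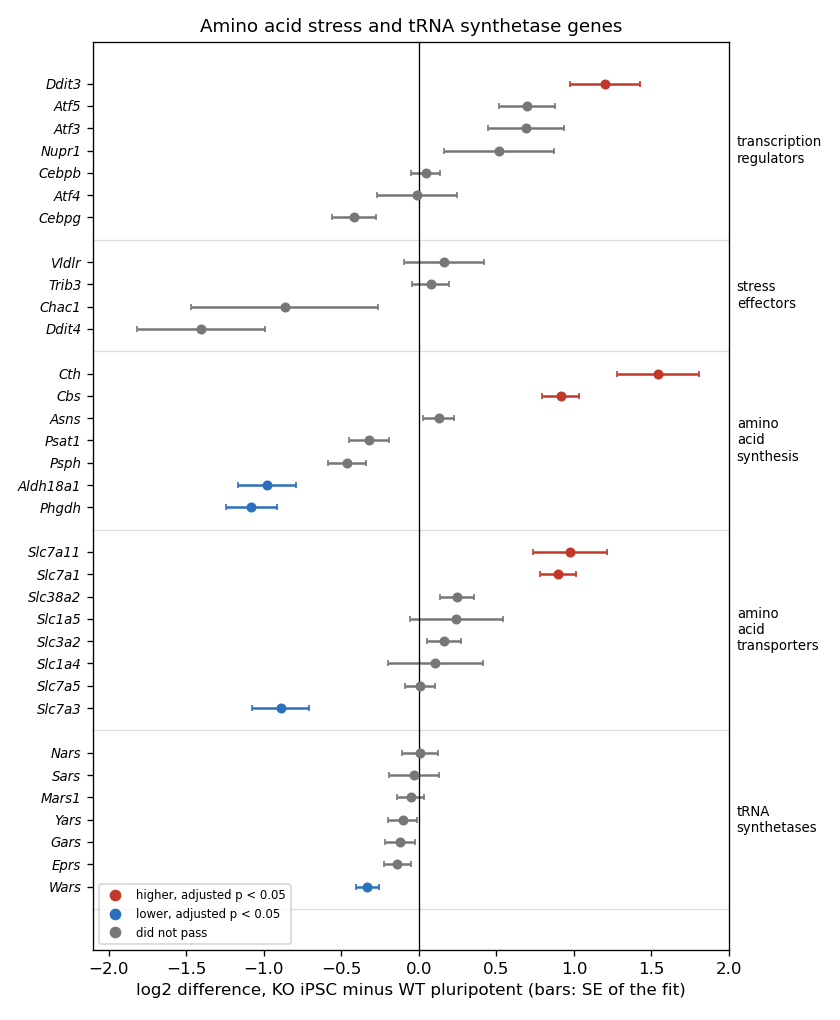
Log2 difference of KO iPSC (2 arrays) minus WT pluripotent cells (3 arrays) for the 33 measured genes, grouped by role, with bars for the SE of the limma fit. Points in red (5) passed as higher and points in blue (4) passed as lower, and the synthesis enzymes and transporters hold both colours.

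Among the 7 transcription regulators, 1 rose (6.89% of all genes) and 0 fell (8.81% of all genes). Ddit3, which encodes CHOP, a factor of prolonged stress, stood at 9.39 and 9.51 in KO iPSC, against 8.18 and 7.89 in WT iPSC and 8.67 in WT ESC. Both KO arrays were above every WT pluripotent array, and the rise was 2.30-fold (log2 1.20, SE 0.23, limma adjusted p = 0.022). Atf4 itself stood at 9.27 and 9.34 in KO iPSC, against 9.38 and 8.82 in WT iPSC and 9.74 in WT ESC. In MEF it stood at 9.28 in KO and 9.28 in WT. The KO iPSC values of Atf4 lay inside the WT range, with a difference of -0.01 (SE 0.26). Because ATF4 is set largely by translation, its transcript level does not measure the protein.

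Atf5, a relative of ATF4 under the same translational control, stood at 9.21 and 9.26 in KO iPSC, against 8.87 and 8.29 in WT iPSC and 8.44 in WT ESC. Both KO arrays were above the WT arrays, but the difference of 0.70 (SE 0.18) did not pass (limma adjusted p = 0.054). It passed without WT iPSC replicate 1 (0.87, limma adjusted p = 0.0065). With either other scaling, trend and robust fitting, or either filter on dim genes, it also passed (limma adjusted p from 0.036 to 0.049). In the remaining runs Atf5 did not pass. Atf3, a stress-induced repressor, ranged from 9.19 to 9.21 in KO iPSC, against 8.02 to 8.77 in the WT pluripotent arrays, and its difference of 0.69 (SE 0.24) did not pass. Atf3 passed without WT iPSC replicate 2 (0.44, limma adjusted p = 0.048). The stress-induced chromatin protein gene Nupr1 stood at 10.08 and 10.19 in KO iPSC, against 9.91 and 8.88 in WT iPSC and 10.06 in WT ESC, a difference of 0.52 (SE 0.36) that did not pass. The WT iPSC array with the low Nupr1 value was replicate 2. Cebpb (0.04) and Cebpg (-0.42), whose proteins pair with ATF4, did not pass.

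Of the 4 stress effectors none passed in either direction by the limma test (15.7% of all genes passed), and 2 had an uneven spread in the WT cells. Ddit4, an inhibitor of mTORC1 that is also induced by low oxygen, stood at 8.52 and 8.51 in KO iPSC, against 9.08 and 10.12 in WT iPSC and 10.55 in WT ESC. Both KO arrays were below all WT arrays, and the difference of -1.40 had an SE of 0.41 (limma adjusted p = 0.076). Without WT iPSC replicate 1 it passed (-1.82, limma adjusted p = 0.0040), as it did with all 7 arrays in 1 fit (-1.56). Chac1, which degrades glutathione, stood at 8.64 and 8.77 in KO iPSC, against 9.89 and 8.33 in WT iPSC and 10.49 in WT ESC. The KO values of Chac1 lay between the WT values, and the difference was -0.87 (SE 0.61). It passed without WT iPSC replicate 2 (-1.49, limma adjusted p = 0.027). Trib3, a pseudokinase that restrains ATF4, stood at 7.90 and 7.97 in KO iPSC, against 7.73 and 7.80 in WT iPSC and 8.06 in WT ESC. The lipoprotein receptor gene Vldlr stood at 7.25 and 7.35 in KO iPSC, against 7.10 and 6.70 in WT iPSC and 7.61 in WT ESC. For Trib3 (0.08) and Vldlr (0.16) the KO values lay within the WT range.

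**Figure D2:**
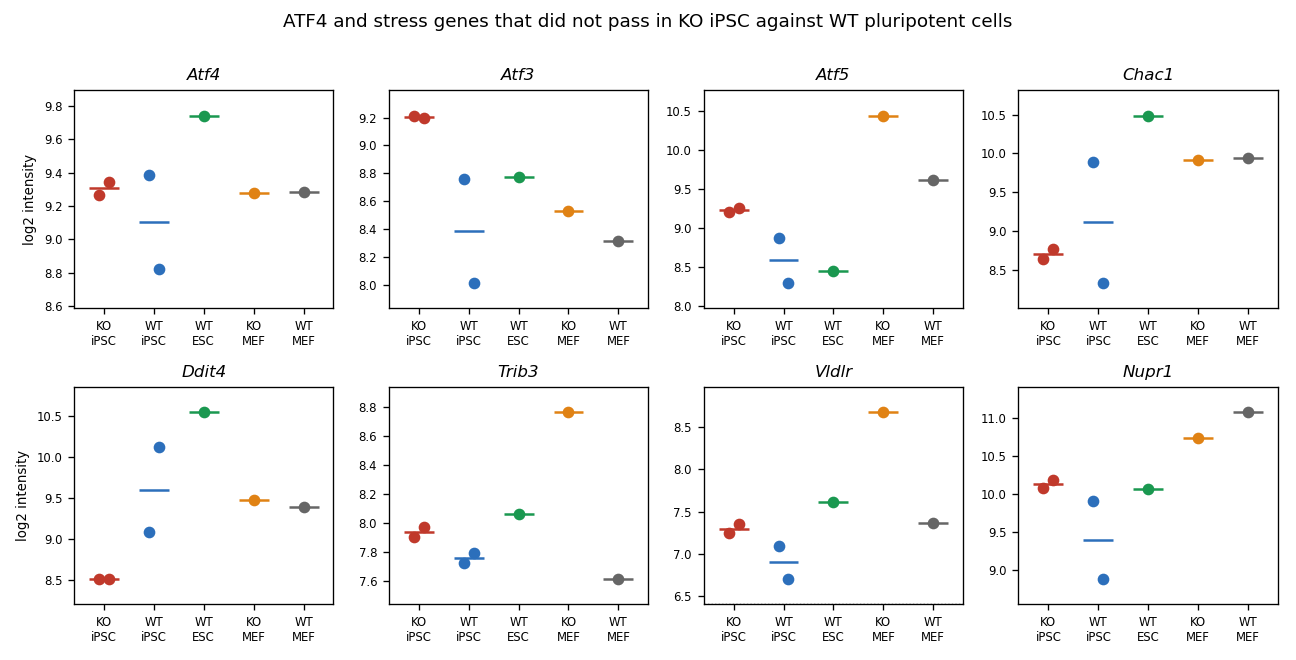
Log2 intensity of Atf4, Atf3, Atf5, Chac1, Ddit4, Trib3, Vldlr and Nupr1 on each of the 7 arrays, with a point for each array and a line at the group mean; each panel has its own scale. The KO iPSC points lie close together, while the 2 WT iPSC points of Chac1 are 1.56 apart.

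Of the 7 measured amino acid synthesis genes, 2 rose (6.89% of all genes) and 2 fell (8.81% of all genes). Cth, the lyase that releases cysteine from cystathionine, stood at 11.60 and 11.57 in KO iPSC, against 9.59 and 10.02 in WT iPSC and 10.53 in WT ESC. Both KO arrays were above every WT array, and the rise was 2.91-fold (log2 1.54, SE 0.26, limma adjusted p = 0.016); without WT iPSC replicate 2 the adjusted p of the limma fit was 0.057. Cbs, the preceding enzyme of transsulfuration, stood at 9.74 and 9.82 in KO iPSC, against 8.67 and 9.01 in WT iPSC and 8.91 in WT ESC. It too lay above all WT arrays and rose 1.88-fold (log2 0.91, SE 0.12, limma adjusted p = 0.0075).

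Phgdh, the first enzyme of serine synthesis from glucose, stood at 8.12 and 8.13 in KO iPSC, against 8.89 and 9.29 in WT iPSC and 9.42 in WT ESC. Phgdh was below every WT array in both KO arrays, and its log2 level fell by 1.08 (SE 0.16, 2.11-fold, limma adjusted p = 0.012). The next enzymes of that route, Psat1 (-0.32, SE 0.13) and Psph (-0.46, SE 0.12), also had both KO arrays below all WT arrays but did not pass. Without WT iPSC replicate 1 Psph did (-0.55, limma adjusted p = 0.029), as it did without genes under the median level (limma adjusted p = 0.048). With all 7 arrays in 1 fit, Psat1 (-0.37) and Psph (-0.51) passed. Aldh18a1, which starts proline and ornithine synthesis from glutamate, stood at 9.52 and 9.52 in KO iPSC, against 10.62 and 10.14 in WT iPSC and 10.74 in WT ESC. Its fall was 1.97-fold (log2 -0.98, SE 0.18, limma adjusted p = 0.022). Asns, asparagine synthetase and a classical ATF4 target, ranged from 12.26 to 12.34 in KO iPSC, against 12.06 to 12.29 in the WT pluripotent arrays, and these ranges overlapped (difference 0.13, SE 0.10).

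Of the 8 measured transporters, 2 rose (6.89% of all genes) and 1 fell (8.81% of all genes), and among them were both cationic amino acid transporters. Slc7a1 (CAT1), a widely expressed arginine and lysine carrier, stood at 11.01 and 11.14 in KO iPSC, against 10.36 and 10.13 in WT iPSC and 10.06 in WT ESC. It was above every WT array and rose 1.86-fold (log2 0.90, SE 0.12, limma adjusted p = 0.0075). Slc7a3 (CAT3), which carries the same amino acids, stood at 10.96 and 11.04 in KO iPSC, against 12.18 and 11.94 in WT iPSC and 11.56 in WT ESC. It was below every WT array and its log2 level fell by 0.89 (SE 0.18, limma adjusted p = 0.028); without WT iPSC replicate 2 the adjusted p of the limma fit was 0.085. Slc7a3 is X-linked, and 364 X-linked genes above background on all arrays had a median difference of -0.17, against -0.01 for 11833 autosomal genes. In WT ESC minus WT iPSC these medians were -0.31 and 0.01, so the X-linked offset was not particular to KO cells. Slc7a3 itself differed there by -0.50 (SE 0.14) and did not pass. The part of an X-linked offset in Slc7a3 was not tested.

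Slc7a11 (xCT) stood at 6.63 and 6.58 in KO iPSC, against 6.07 and 5.23 in WT iPSC and 5.59 in WT ESC. All 3 WT values lay below background and both KO values just above it, so the rise is given as at least 1.18-fold (fitted log2 0.98, SE 0.24, limma adjusted p = 0.047). It did not pass without WT ESC (limma adjusted p = 0.082) or without WT iPSC replicate 2 (limma adjusted p = 0.071). A dimmer probe set of Slc7a11 lay below background on all arrays, and the call was lost with the mean of both and in a fit of all 7 arrays. Its partner chain Slc3a2 (0.16), and Slc7a5 (0.01), Slc1a4 (0.11) and Slc38a2 (0.25), did not pass. The glutamine carrier Slc1a5 stood at 10.77 and 10.88 in KO iPSC, against 10.30 and 10.24 in WT iPSC and 11.20 in WT ESC. The KO values lay between those of WT iPSC and WT ESC, with a difference of 0.24 (SE 0.30) from the WT arrays together.

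The tRNA synthetases join each amino acid to its tRNA. Their 7 measured members differed little, with differences from -0.33 to 0.01 and 1 call (15.7% of all genes passed). Wars, the tryptophanyl enzyme, stood at 11.11 and 11.15 in KO iPSC, against 11.47 and 11.44 in WT iPSC and 11.49 in WT ESC. Its 3 WT values were close together (SD 0.03, n = 3), both KO values lay below them, and its log2 level fell by 0.33 (SE 0.08, 1.26-fold, limma adjusted p = 0.037). That call was lost without WT ESC (limma adjusted p = 0.064), WT iPSC replicate 1 (limma adjusted p = 0.052) or WT iPSC replicate 2 (limma adjusted p = 0.082), and also with each array centred on its median. Gars (-0.12), Sars (-0.03), Mars1 (-0.05), Nars (0.01), Eprs (-0.14) and Yars (-0.10), which charge glycine, serine, methionine, asparagine, glutamate and proline, and tyrosine, did not pass.

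**Figure D3:**
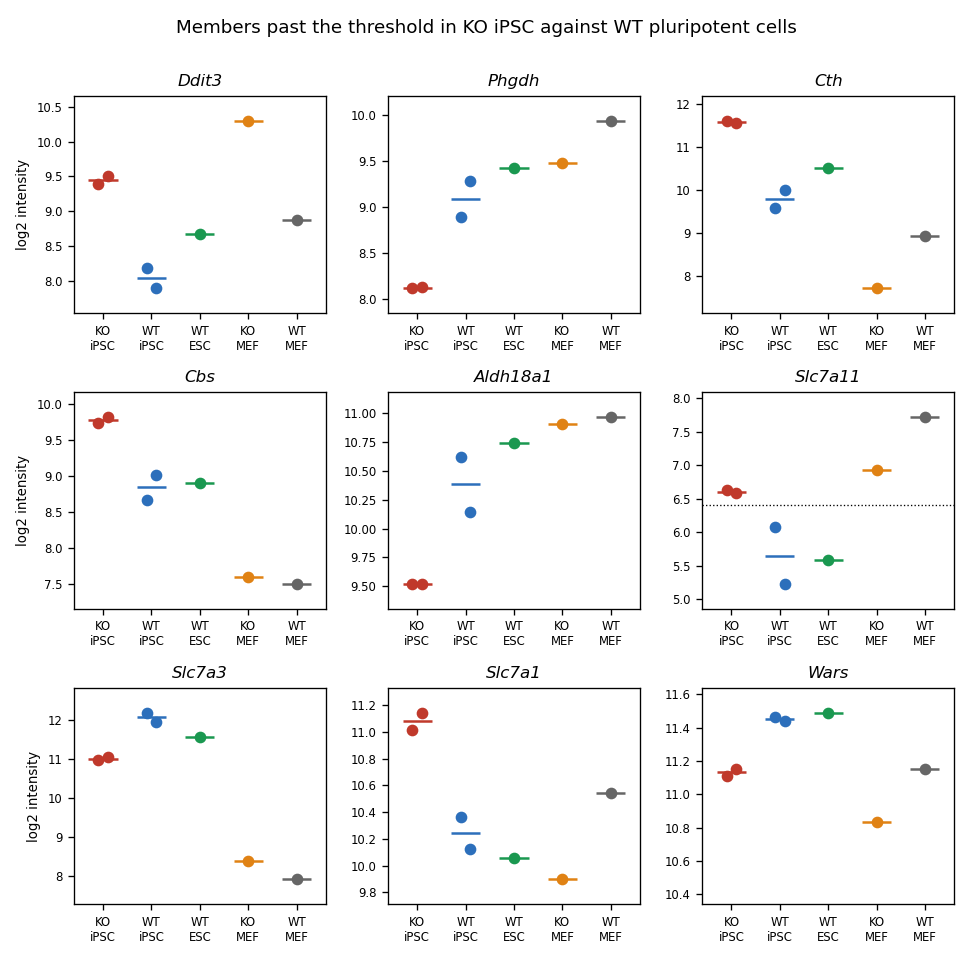
Log2 intensity on each of the 7 arrays of the 9 genes that passed in KO iPSC against WT pluripotent cells, with a point for each array, a line at the group mean and, for Slc7a11, a dotted line at the mean background; each panel has its own scale. In every panel both KO iPSC points lie outside the range of the 3 WT iPSC and WT ESC points.

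The fibroblast marker median was lower on both KO iPSC arrays than on each WT pluripotent array, but not every single marker was. Both KO iPSC arrays were below all WT pluripotent arrays for Col1a1, Col1a2, Col5a1, Postn, Thy1, Pdgfrb, Acta2, Tagln, Cdh11 and Lox (5.35 and 6.10). Fn1 (13.19 and 13.18) was the only marker above them on both. Col6a1 (8.47 and 8.71) was within their range, and for the other measured markers the KO and WT arrays overlapped. The 9 genes that passed stood differently in MEF. Both MEF arrays were above all 3 WT pluripotent arrays for Phgdh and Aldh18a1, which fell, and for Ddit3 and Slc7a11, which rose. Both were below them for Slc7a3 and Wars, which fell, and for Cth and Cbs, which rose, while Slc7a1 was mixed. Without WT iPSC replicate 1, the WT array with the highest fibroblast marker median, the difference was -1.23 for Phgdh, -0.92 for Aldh18a1, 1.17 for Ddit3 and 1.20 for Slc7a11, and all 4 passed. WT ESC, with a marker median of 8.38, remained in that fit. The part of fibroblast RNA in these differences was not tested.

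Other genes of the pathway were taken from lists, for KO iPSC against WT pluripotent cells, where 6.89% of all genes rose and 8.81% fell. Of 10 measured genes that control eIF2 phosphorylation, 3 rose and 1 fell. Impact, an inhibitor of GCN2 activation, stood at 12.34 and 12.30 in KO iPSC, against 10.91 and 10.94 in WT iPSC and 11.18 in WT ESC, and rose by 1.31 (SE 0.11). Ppp1r15a (GADD34), which brings a phosphatase to eIF2, stood at 10.06 and 9.84 in KO iPSC, against 8.74 and 8.57 in WT iPSC and 9.17 in WT ESC, and rose by 1.12 (SE 0.19). The eIF2B subunit gene Eif2b5 rose by 0.46, and the RNA-activated kinase gene Eif2ak2 fell by 0.62. The limma adjusted p = 0.0021 for Impact and 0.016 for Ppp1r15a.

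Of 23 further genes reported as ATF4 targets, 4 rose and 2 fell, with a median of -0.04, against 0.03 over all genes. The counts here stand beside 6.89% of all genes higher and 8.81% lower. The lysosomal amino acid transporter gene Slc38a7 (1.47) and the autophagy receptor gene Sqstm1 (0.81) rose, and the transporter gene Slc7a6 (-1.54) and the angiogenic factor gene Vegfa (-1.33) fell. Of 9 other genes of cytosolic synthetases and their scaffold, Vars (-0.53) and Hars (-0.39) fell and 0 rose. Of 16 mitochondrial synthetase genes, 4 fell, namely Rars2 (-0.68), Nars2 (-0.67), Vars2 (-0.59) and Ears2 (-0.59), and 1 rose. Of 18 genes of the ER chaperone and ERAD arms of the unfolded protein response, 3 rose and 1 fell: the ER stress sensor gene Ern1 (0.59), Dnajb11 (0.48) and Syvn1 (0.41) rose and Creld2 (-0.36) fell. The medians of the last 3 lists were -0.20, -0.24 and 0.10.

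KO iPSC were next set against WT iPSC alone, without the ESC array, so this comparison shares its arrays with the one above. Of the 33 genes 5 were higher (6.93% of all genes) and 3 lower (9.55% of all genes), with 16.5% of all genes passing in either direction. Cth rose 3.44-fold (log2 1.78, SE 0.16, limma adjusted p = 0.0039) and Ddit3 rose 2.67-fold (1.41, SE 0.13, limma adjusted p = 0.0040). Cbs (0.94), Slc7a1 (0.83) and Slc1a5 (0.55) rose as well, and Slc7a3 (-1.06), Phgdh (-0.97) and Aldh18a1 (-0.86) fell. The call of Aldh18a1 was lost with quantile normalization, and a second probe set of Slc1a5 gave 0.54. X-linked genes, to which Slc7a3 belongs, had a median of -0.27 here, and of -0.31 in WT ESC minus WT iPSC.

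The calls within iPSC changed with the arrays used. Without KO iPSC replicate 1, and also without KO iPSC replicate 2, only the calls of Cth and Ddit3 were kept. Calls over all genes were also far fewer, with the KO side then 1 array and the spread that of the WT iPSC pair. Without WT iPSC replicate 1, 13 were higher and 5 lower, as were 2504 and 3475 of all genes. Without WT iPSC replicate 2, 9 were higher and 5 lower, as were 2457 and 3157 of all genes, against 1538 and 2118 with both. In these fits the spread came from the KO iPSC pair alone. The WT iPSC arrays differed at least 2-fold from each other in 3 of the 33 genes (1.58% of all genes), and the KO iPSC arrays in 0 (0.0180% of all genes). The 3 were Chac1 (1.56 higher in replicate 1), Nupr1 (1.04 higher in replicate 1) and Ddit4, whose level in replicate 1 minus replicate 2 was -1.04. For Chac1 the difference between genotypes was -0.41 (SE 0.50), and it was 0.37 with replicate 1 of WT iPSC left out and -1.19 with replicate 2 left out.

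WT ESC were compared with WT iPSC to see how far WT pluripotent cells differed from each other. In limma 0 of the 33 genes were higher (0.0812% of all genes) and 0 lower (0.0812% of all genes), with 0.162% of all genes passing in either direction, while 12 of the 33, and 2704 of all 22180, had an unadjusted p under 0.05. The median difference was 0.28, against -0.02 over all genes, and WT ESC lay above both WT iPSC arrays for 25 of the 33 (31.6% of all genes) and below both for 2 (37.4% of all genes). The largest differences were those of Chac1 (1.38, SE 0.61), Ddit4 (0.95, SE 0.41) and Slc1a5 (0.93, SE 0.11), and Atf4 differed by 0.64 (SE 0.24). Slc1a5 passed with trend and robust fitting, and leaving out 1 WT iPSC array set 1 array against 1, with the spread of the KO iPSC pair alone. With replicate 1 left out 9 genes were higher and 0 lower, as were 488 and 407 of all genes. With replicate 2 left out 6 were higher and 2 lower, as were 1095 and 1194 of all genes, against 18 and 18 with both.

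To set iPSC against MEF, a fit held genotype as a second term. Of the 33 genes 7 were higher in iPSC (16.0% of all genes) and 8 lower (14.7% of all genes), with 30.7% of all genes passing in either direction. Slc7a3 stood at 10.96 and 11.04 in KO iPSC and 12.18 and 11.94 in WT iPSC, against 8.38 in KO MEF and 7.91 in WT MEF, and was 10.5-fold higher in iPSC (log2 3.39, SE 0.35, limma adjusted p = 0.0023). Cbs stood at 7.60 in KO MEF and 7.51 in WT MEF, so all 4 iPSC arrays were above both (1.75, SE 0.22). Slc1a5 stood at 9.73 in KO MEF and 8.73 in WT MEF, also below all iPSC arrays (1.32, SE 0.13). Asns (0.81), Mars1 (0.45) and Wars (0.30) were higher in iPSC too, with Wars at 10.83 in KO MEF and 11.15 in WT MEF. For Wars the arrays overlapped, as KO iPSC replicate 1 (11.11) was below WT MEF. Cth was higher by 2.37 (SE 0.66, limma adjusted p = 0.048), a value that each MEF array moved by over 1.5 times: it was 3.86 without WT MEF and 0.88 without KO MEF. Its call was lost without any 1 of the 4 iPSC arrays.

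On the fibroblast side were 4 of the 7 transcription regulators (14.7% of all genes were lower in iPSC). Atf5 stood at 10.45 in KO MEF and 9.62 in WT MEF, above all 4 iPSC arrays (-1.13, SE 0.18), and Ddit3 (-0.84), Cebpb (-0.67) and Cebpg (-0.58) were lower in iPSC as well. For Ddit3 this held within each genotype only, as both KO iPSC arrays (9.39 and 9.51) were above WT MEF (8.88). Phgdh stood at 9.48 in KO MEF and 9.93 in WT MEF, above all 4 iPSC arrays (-1.10, SE 0.17). Aldh18a1 (-0.98, with 10.91 in KO MEF and 10.96 in WT MEF), Slc1a4 (-0.97) and Vldlr (-0.92) were lower in iPSC too. Without KO MEF the difference was -0.46 for Vldlr, -0.58 for Aldh18a1, -0.42 for Cebpb and -0.38 for Cebpg, each over 1.5 times smaller and no longer past the threshold. The calls of Atf5, Ddit3, Phgdh, Asns, Cbs, Slc7a3 and Slc1a5 held in every alternative run, and each of the other 8 was lost with at least 1 array left out. Chac1, at 9.91 in KO MEF and 9.95 in WT MEF, was lower in iPSC by 1.02 with an SE of 0.43 and did not pass, although it did without WT iPSC replicate 1 (-1.38, limma adjusted p = 0.0064). Nupr1 stood at 10.73 in KO MEF and 11.08 in WT MEF, and its difference of -1.14 had an SE of 0.37 (limma adjusted p = 0.075); it passed without WT iPSC replicate 2 (-0.84) or without KO MEF (-1.68). Without either KO iPSC array 4 genes were higher and 3 lower, and without WT iPSC replicate 2, 5 and 5 passed.

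KO MEF and WT MEF were 1 array each, so their differences have no replicate check and no test. These arrays also differed in fibroblast markers, with Lum at 10.60 in KO MEF and 5.09 in WT MEF, and Dcn at 12.19 and 7.99. Only Acta2 (13.47 in KO MEF and 13.52 in WT MEF) and Tagln were lower in KO MEF. The part of such sample differences in the values below was not tested. Of the 33 genes 4 were at least 2-fold higher in KO MEF (2.80% of all genes) and 1 at least 2-fold lower (1.77% of all genes). Ddit3 stood at 10.29 in KO MEF and 8.88 in WT MEF, a difference of 1.41 that equals its difference within iPSC to 2 decimals. Vldlr stood at 8.67 in KO MEF and 7.36 in WT MEF (1.31), and Trib3 at 8.76 in KO MEF and 7.61 in WT MEF (1.15). Slc1a5, already given, was just past 2-fold, while its second probe set differed by 0.68. Cth stood at 7.72 in KO MEF and 8.93 in WT MEF (-1.20). Atf4 (-0.01), Chac1 (-0.03) and Ddit4 (0.08) differed little between the MEF arrays, with Ddit4 at 9.47 in KO MEF and 9.39 in WT MEF. Slc7a11 stood at 6.93 in KO MEF and 7.72 in WT MEF, and Slc7a1 at 9.90 in KO MEF and 10.54 in WT MEF.

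The interaction asks whether the genotype difference in iPSC differs from that in MEF, with the spread of the MEF arrays assumed equal to that of the iPSC arrays. Of the 33 genes 2 had a higher difference in iPSC (3.07% of all genes) and 2 a lower one (5.48% of all genes), with 8.55% of all genes passing in either direction. Cth had the largest (2.99, SE 0.27, limma adjusted p = 0.0090), with KO above WT in iPSC and below WT in MEF. Slc7a1 also moved up with KO in iPSC and stood lower in KO MEF (1.48, SE 0.20, limma adjusted p = 0.021), and Slc7a3 showed the opposite arrangement (-1.53, SE 0.20, limma adjusted p = 0.018). For Trib3 the difference was near 0 in iPSC and positive in MEF (-0.97, SE 0.15, limma adjusted p = 0.027). With either KO iPSC array left out, none of the 33 passed, and calls over all genes were also far fewer. Without WT iPSC replicate 1, 8 were higher and 6 lower, as were 2084 and 2932 of all genes, and without WT iPSC replicate 2, 4 were higher and 6 lower, as were 2036 and 2801 of all genes, against 682 and 1215 with both. The spread then came from the KO iPSC pair alone. Ddit3 gave an interaction of 0.00 (SE 0.22).

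**Figure D4:**
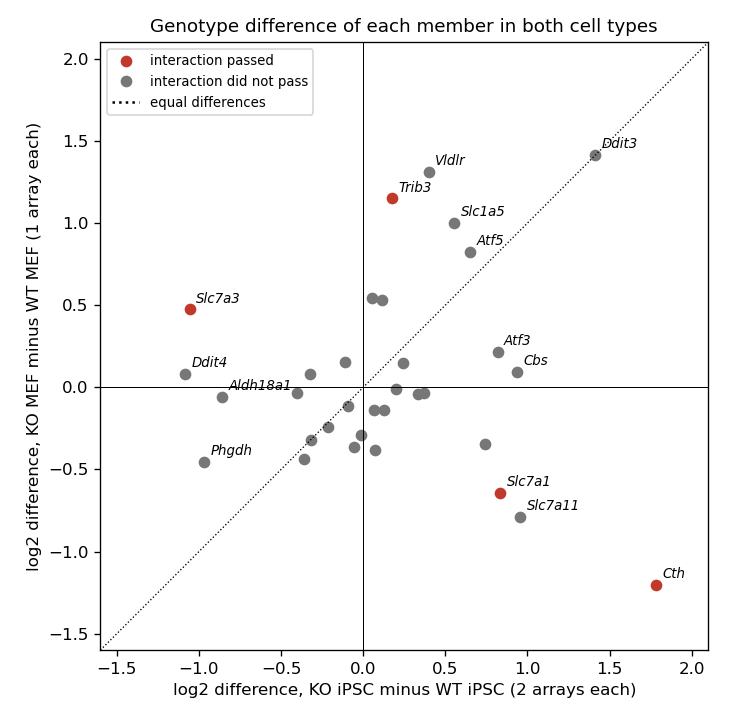
Log2 difference of KO minus WT in iPSC (horizontal, 2 arrays each) against KO minus WT in MEF (vertical, 1 array each) for the 33 genes, with a dotted line where both are equal. The 4 genes in red passed the interaction test; Cth lies at 1.78 and -1.20, and Ddit3 lies on the line at 1.41.

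The 10 measured genes with the TGATGNAA motif in their promoter window were set beside the 17 with a window and no match. Of the 10, 1 rose in KO iPSC against WT pluripotent cells (Slc7a11), 0 fell and 9 did not pass. Of the 17, 3 rose (Ddit3, Cbs and Slc7a1), 2 fell (Phgdh and Aldh18a1) and 12 did not pass. Over all genes 6.89% rose and 8.81% fell. The other 6 measured genes had no window, among them Cth, Slc7a3 and Wars. A match describes the letters of the window and not binding, and sites beyond the window were not looked for.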

How the data were processed

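RNA of 7 mouse samples was measured on 1 single-colour Affymetrix array each. The authors' deposited values are linear probe set intensity values; per the submitters' processing notes, the tools were RMA and version 1.3.0.187 of Affymetrix Expression Console. The genome build is not given in the sources used here. They ran from 9.67 to 13043. Here log2 was taken, although the design had assumed log2 values. Of 33649 probe sets, 23521 had 1 gene symbol, 1814 had several and 8314 were not listed. The probe set with the highest mean stood for a gene, giving 22180 genes. No dim gene was left out. Differences were tested two-sided with limma 3.58.1 in R 4.3.3 (lmFit, eBayes), and p-values adjusted by Benjamini-Hochberg across the 22180 genes were called under 0.05. KO iPSC against WT pluripotent used 5 arrays; KO against WT iPSC, ESC against iPSC and the interaction used 7 arrays with 1 coefficient per group; iPSC against MEF used 6 arrays. In the fits of 7 arrays, a group of 1 array takes its spread from the iPSC groups. In KO iPSC against WT pluripotent, the spread includes the difference of WT ESC from WT iPSC. In iPSC against MEF, it includes any difference of the genotype effect between the cell types. The fits were tested on simulated data.

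Precision is limited by how few arrays there are. Where a side lay below background on every array, the fold is a lower bound against that background. The genes, lists and tests were chosen with earlier results of these data known. Every array value is printed for genes past the threshold in either KO iPSC comparison, for Atf4 and for genes at least 2-fold apart between compared groups; other lists name at most 4 genes each, those with the largest differences among the genes that passed. Samples with the same replicate number in KO and WT iPSC did not deviate together (correlation over genes 0.02). Alternatives were the scaling, trend and robust fitting, filters on dim genes, the mean of probe sets, each array left out, the KO iPSC arrays as 1, other sets of arrays and a replicate block.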

Additional observations from a re-analysis of the deposited data

Results flagged for a closer look

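In 4 genes the genotype difference in iPSC differed from that in MEF by the interaction term of the limma fit. The interaction was 2.99 for Cth, 1.48 for Slc7a1, -1.53 for Slc7a3 and -0.97 for Trib3. The MEF side rests on 1 array per genotype. With either KO iPSC array left out none of the 4 passed, and calls over all genes were also far fewer.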

How the results depend on the processing

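Of 36 calls over the 5 tested comparisons, 9 held in every alternative run, among them Cth and Ddit3 in KO against WT iPSC. Some of these runs could change little. Within iPSC, the 4 iPSC arrays alone repeat the main fit. The mean of probe sets alters the values of Slc7a11 and Slc1a5 alone. Of 2107 values of single genes under an alternative, 1907 kept their side of the threshold (55 of these, not called either way, changed sign), 113 lost a call, 82 gained one, 4 of the MEF pair, which has no spread of its own, moved by more than the gene's residual SD in the iPSC fit, and 1 turned: Chac1 in KO minus WT iPSC was 0.37 (adjusted p = 0.047 in limma) without WT iPSC replicate 1; with replicate 2 left out it was -1.19. With the KO iPSC arrays averaged as 1, none of the 33 passed against WT pluripotent cells or in the interaction. Against WT iPSC only Cth and Ddit3 did, and calls over all genes were far fewer in these 3 comparisons. For iPSC against MEF 4 were higher and 3 lower, as were 2332 and 2214 of all genes, against 3540 and 3262 in the main fit. Averaging leaves fewer arrays. With 1 array left out in turn, genes higher and lower ranged from 0 to 6 and 0 to 5 against WT pluripotent cells, 2 to 13 and 0 to 5 against WT iPSC, 0 to 9 and 0 to 2 for ESC against iPSC, 4 to 7 and 3 to 9 for iPSC against MEF, and 0 to 8 and 0 to 6 for the interaction. All 7 arrays in 1 fit gave 7 lower against WT pluripotent cells. That fit weighs the WT ESC array the same as the mean of the WT iPSC arrays, while the main fit weighs each WT array equally. Leaving out genes under the median level gave 5 lower within iPSC, and trend and robust fitting gave 1 higher in ESC. The cause of these shifts was not tested. The share of higher calls over all genes moved from 43.9% to 54.1% with arrays centred on their median in KO iPSC against WT pluripotent cells, where 6 of the 33 genes were then higher and 3 lower. A replicate block within iPSC gave 6 higher and 3 lower (Slc7a11 passed, adjusted p = 0.048 in limma); the numbers do not pair the samples.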
